A study of Mus musculus with 6 samples.

Results

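The genes described here are those that make fatty acids from citrate and then lengthen and desaturate them. They were 10 genes listed by symbol: Srebf1, Acly, Acaca, Fasn, Elovl5, Elovl6, Scd1, Scd2, Fads1 and Fads2. Of these, 9 matched a row among the 16111 genes with an identifier in the deposited table. Fads2 matched none, so its transcript was not analysed here and only its promoter window is counted below. The list was drawn up with earlier results of the same contrast known, and its members' differences were in view. The differences between genotypes in these 9 genes are therefore a description, and their adjusted p-values only show where each gene stood in the fit across all tested genes.

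The cells were macrophages grown from the fetal liver of C57BL/6 RCC mice, taken at stage E13.5. One group was wild type (WT) and the other was deficient in Ahrr (AhRR-/- in the protocol), which encodes the repressor of the aryl hydrocarbon receptor, and each group had 3 libraries, each with a mouse number of its own within its genotype. Both groups were kept for 5 weeks in RPMI with 10% fetal calf serum and 2% GM-CSF, and RNA came from the cells that did not adhere. The kind of targeted allele, and whether the fetuses of a genotype shared a litter, are not given in the sources used here. The comparison asks which transcripts differ where the repressor is missing. Values per library are given below in the order of replicates 1, 2 and 3.

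Fatty acid synthesis starts in the cytosol, where ATP citrate lyase (Acly) splits citrate into acetyl-CoA, acetyl-CoA carboxylase (Acaca) turns acetyl-CoA into malonyl-CoA, and fatty acid synthase (Fasn) joins these units into the saturated fatty acid palmitate. Elovl6 lengthens palmitate to stearate, and the stearoyl-CoA desaturases Scd1 and Scd2 add the double bond that makes monounsaturated fatty acids. Elovl5, Fads1 and Fads2 work on polyunsaturated fatty acids taken from the diet or medium. Srebf1 encodes SREBP-1, a membrane-bound transcription factor of this pathway, whose own transcription is driven by the oxysterol receptors LXR alpha (Nr1h3) and LXR beta (Nr1h2). In macrophages the pathway supplies membrane lipid and shapes inflammatory signalling.

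Sequence upstream of the start site is shown for the 3 genes with the higher transcript in Ahrr-deficient cells that had an entry in the RefSeq promoter table (GRCm38.p6), and for Elovl5, whose level hardly differed. Of the 10 listed genes 7 had an entry, with 9 windows in all, since Srebf1 had 3 start sites. Each window is the 250 bases before the start, read 5′ to 3′ on the strand of the gene. Capitals mark the letters of 5 motifs searched on both strands: CCAAT (bound by NF-Y), GGGCGG (the GC box, bound by Sp1), CACGTG (an E-box), GCGTG (the core of the site bound by the aryl hydrocarbon receptor) and TCACNCCAC (a sterol regulatory element). The windows are Fasn at chr11:120824548-120824797 on the minus strand, Elovl6 at chr3:129532136-129532385 on the plus strand, Acaca at chr11:84195188-84195437 on the plus strand, at a start inside the annotated gene, and Elovl5 at chr9:77917115-77917364 on the plus strand.
Fasn: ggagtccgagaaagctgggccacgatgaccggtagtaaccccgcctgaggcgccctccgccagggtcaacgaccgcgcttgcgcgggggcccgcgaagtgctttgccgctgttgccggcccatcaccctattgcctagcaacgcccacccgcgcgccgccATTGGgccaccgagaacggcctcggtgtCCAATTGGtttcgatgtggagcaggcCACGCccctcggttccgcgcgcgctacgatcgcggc
Elovl6: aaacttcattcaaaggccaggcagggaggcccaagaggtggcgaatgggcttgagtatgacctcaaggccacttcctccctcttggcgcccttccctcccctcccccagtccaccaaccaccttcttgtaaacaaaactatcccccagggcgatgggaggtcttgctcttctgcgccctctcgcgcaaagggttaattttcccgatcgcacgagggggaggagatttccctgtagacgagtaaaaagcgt
Acaca: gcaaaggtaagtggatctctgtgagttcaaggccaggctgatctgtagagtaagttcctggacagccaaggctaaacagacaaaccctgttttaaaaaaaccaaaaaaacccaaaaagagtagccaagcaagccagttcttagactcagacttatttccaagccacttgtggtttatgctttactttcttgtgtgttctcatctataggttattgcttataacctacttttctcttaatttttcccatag
Elovl5: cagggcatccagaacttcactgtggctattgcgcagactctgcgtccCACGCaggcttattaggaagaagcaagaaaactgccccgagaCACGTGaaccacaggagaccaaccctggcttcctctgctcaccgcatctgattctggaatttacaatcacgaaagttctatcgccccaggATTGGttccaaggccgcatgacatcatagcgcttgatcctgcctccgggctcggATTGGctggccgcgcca

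The Fasn window held 3 CCAAT matches that began 90, 62 and 59 bases before the start, the last pair overlapping, and 1 GCGTG match at 36 bases. The Elovl5 window held CCAAT matches at 71 and 17 bases, a CACGTG match at 161 and a GCGTG match at 203. The Elovl6 and Acaca windows held none of the 5 motifs. The Acaca window lies inside the annotated gene, which begins at 84129672, so the sequence before the gene was not searched. Over the 9 windows CCAAT was found in 4, GGGCGG in 4, GCGTG in 2, CACGTG in 1 and TCACNCCAC in 0. Among 32851 windows of the same length in the table these motifs were found in 33.8%, 32.7%, 28.2%, 6.02% and 1.05%. In the 4 windows shown, CACGTG was found in that of Elovl5 alone, and CCAAT and GCGTG in those of Fasn and Elovl5. These matches say nothing about what binds there.

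Library totals lay between 3556106 counts (Ahrr-deficient replicate 1) and 41668336 counts (Ahrr-deficient replicate 2). Ahrr itself fell from 4.74 ± 0.53 to 2.01 ± 0.71 counts per 1000000 (CPM; SD, n = 3). The fitted difference of Ahrr-deficient minus WT, the log2 fold change, was -1.21 with a standard error of 0.26 and an adjusted p of 0.0151 in edgeR, and the call was lost without WT replicate 1 or WT replicate 3. Ahrr-deficient replicate 1 stood apart from the other libraries on the second principal component (19.03% of the variance of log2 CPM), and in WT replicate 2 a single ribosomal RNA gene, CT010467.1, took 5.28% of the counts. All 8 macrophage markers listed were present, at a summed 21829 to 27080 CPM in WT and 15069 to 22592 CPM in Ahrr-deficient libraries. Of them Csf1r (log2 -0.65, adjusted p 0.0304) and Cd14 (log2 -1.66, adjusted p 0.00329) were lower in Ahrr-deficient cells. The summed hepatocyte, erythroid and neutrophil markers did not exceed 2.38 CPM in any library, and 7 of 7 mast cell markers and Adipoq, Alb and Col1a1 matched no row. Of 6 adipocyte markers 3 matched, with 9.36 to 15.6 CPM in WT and 2.14 to 6.75 CPM in Ahrr-deficient libraries, of 6 dendritic cell markers 3 matched, with 57.6 to 62.1 and 72.0 to 93.2 CPM, and of 6 fibroblast markers 1 matched, with 2.38 to 9.68 and 1.62 to 3.94 CPM. Within the adipocyte sum, Plin1 fell from a mean of 9.35 to 3.12 CPM (edgeR adjusted p 0.0193) and Cidec from 2.37 to 0.997 CPM (0.00946). Retn went from 0.38 to 0.19 CPM (below the filter). Within the dendritic cell sum, Clec9a rose from a mean of 54.5 to 81.2 CPM (edgeR adjusted p 0.0256). The others went the other way: Zbtb46 from 5.48 to 4.43 CPM (not called) and Xcr1 from 0.29 to 0.18 CPM (below the filter). Most of the macrophage sum was Lyz2, with means of 19958 and 15185 CPM, which was not called (edgeR adjusted p 0.0926). The part of these shifts in the values below was not tested. In such bulk RNA, fewer cells of a kind and less RNA per cell cannot be told apart.

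Transcripts of Acaca, Fasn, Elovl6 and Scd1, which act between acetyl-CoA and monounsaturated fatty acid, were higher in Ahrr-deficient cells, while Srebf1, Acly, Scd2, Elovl5 and Fads1 were not past the threshold. Elovl6 was 4.39-fold, Scd1 3.26-fold, Acaca 2.02-fold and Fasn 1.71-fold higher. Of the 9 genes these 4 were past an edgeR adjusted p of 0.05, all of them higher in Ahrr-deficient cells, where 9.62% of the 11408 tested genes were called higher and 9.95% lower (19.6% in all). Elovl6, Scd1 and Acaca were also at least 2-fold higher, as were 1.91% of the tested genes. The median log2 fold change was 0.51 over the 9 genes and 0.01 over all tested genes. All 9 genes passed the filter on low counts, with a mean of at least 50 counts each. Because the list was chosen on this contrast, nothing is read from these shares.

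**Figure D1:**
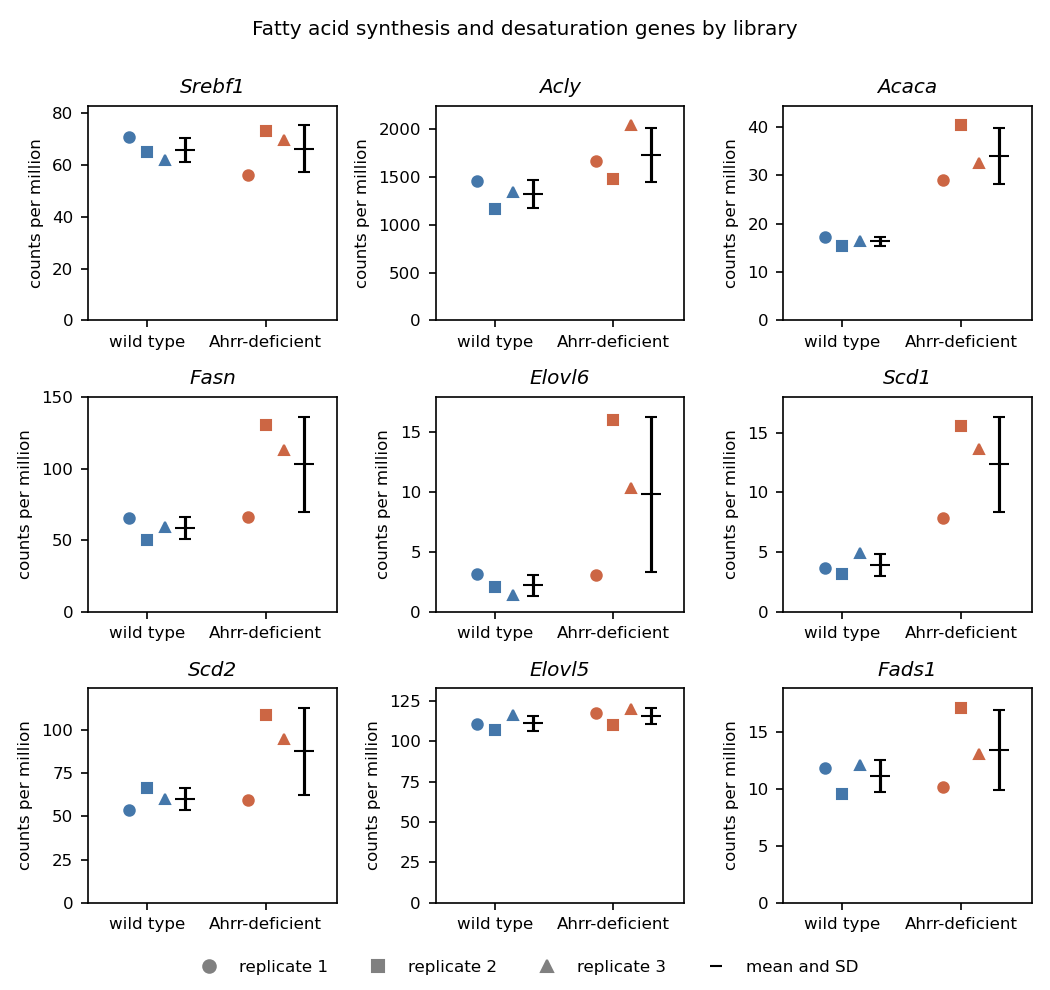
Level of each of the 9 genes in counts per 1000000 (vertical axes, from 0) in the 3 wild-type (blue) and 3 Ahrr-deficient (orange) libraries, with circles, squares and triangles for replicates 1, 2 and 3 and bars for mean ± SD. Ahrr-deficient replicate 1 lies below the other Ahrr-deficient libraries in 7 of the 9 genes, and Elovl5 stays between 107 and 120 CPM throughout.

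Acaca (ENSMUSG00000020532.18, chromosome 11, 84129672 to 84401651, plus strand) encodes the enzyme that commits acetyl-CoA to fatty acid synthesis. It had 17.1, 15.4 and 16.4 CPM in the WT libraries and 29.0, 40.3 and 32.6 CPM in the Ahrr-deficient ones. The groups did not overlap, and the WT values were close together (CV 5.36%). The mean rose from 16.3 ± 0.9 to 33.9 ± 5.8 CPM (SD, n = 3), or by 1.01 in log2 terms (standard error 0.13), at an adjusted p of 0.00244 from edgeR. Acaca was called without each of the 6 libraries in turn, with a difference between 0.85 and 1.08. Of the distinct 75-base stretches of annotated Acaca transcripts, 26.8% also occur in another gene, nearly all of them (26.2%) in the processed pseudogene Gm5182, which had 9, 1 and 1 counts in WT and 0, 28 and 5 in Ahrr-deficient libraries. Reads from those stretches could be split or dropped, so the level of Acaca is uncertain.

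Fasn (ENSMUSG00000025153.9, chromosome 11, 120805846 to 120824547, minus strand) encodes the synthase that makes palmitate. Its values were 65.7, 50.2 and 59.4 CPM in WT against 66.1, 130.3 and 113 CPM in Ahrr-deficient cells. In CPM, Ahrr-deficient replicate 1 was just above the highest WT library, and the other pair was far above it. In the deposited signal, the count divided by a size factor per library, Ahrr-deficient replicate 1 lay just below WT replicate 1. The means were 58.4 ± 7.8 and 103 ± 33 CPM (SD, n = 3). Fasn rose by 0.77 in log2 terms (standard error 0.20), at an adjusted p of 0.0276 from edgeR. Leaving out 1 library ended the call of Fasn in 5 of 6 cases, all except Ahrr-deficient replicate 1. The adjusted p then reached 0.102 and the difference ran from 0.57 to 0.96. With the replicate number as a block the adjusted p was 0.0589.

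Elovl6 (ENSMUSG00000041220.10, chromosome 3, 129532355 to 129638495, plus strand) encodes the elongase that makes stearate from palmitate. It was the lowest of the 9 transcripts in WT per length, with 69, 13 and 10 counts, or 3.14, 2.06 and 1.401 CPM. The Ahrr-deficient libraries held 11, 667 and 102 counts, or 3.09, 16.01 and 10.3 CPM. Ahrr-deficient replicate 1 lay inside the WT range, so the groups overlapped, while replicates 2 and 3 were above every WT library. Elovl6 rose by 2.13 in log2 terms (standard error 0.45), at an adjusted p of 0.0143 from edgeR. Its call was lost without WT replicate 2 (adjusted p 0.0514), without WT replicate 3 (0.0502) and without Ahrr-deficient replicate 2 (0.0697), and with all libraries thinned to the smallest total (1.66, adjusted p 0.0729). The difference was 1.57 to 2.59 over the fits that left out 1 library. An exon of Gm35986 overlaps 34 bases of Elovl6 on the opposite strand.

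Scd1 (ENSMUSG00000037071.2, chromosome 19, 44394455 to 44407879, minus strand) encodes a desaturase that makes oleate from stearate. It had 3.65, 3.17 and 4.90 CPM in WT against 7.87, 15.6 and 13.7 CPM in Ahrr-deficient cells. Every Ahrr-deficient library was above every WT library. The mean rose from 3.91 ± 0.89 to 12.4 ± 4.0 CPM (SD, n = 3), or by 1.71 in log2 terms (standard error 0.24), at an adjusted p of 0.00331 from edgeR. The call held without each library in turn, between 1.49 and 1.85.

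Scd2 (ENSMUSG00000025203.5, chromosome 19, 44293674 to 44306864, plus strand) encodes a second desaturase of the same reaction and lies 87.6 kb from Scd1. Its values were 53.3, 66.2 and 60.0 CPM in WT against 59.6, 108 and 94.8 CPM in Ahrr-deficient cells. Replicate 1 lay within the WT range and the other Ahrr-deficient libraries above it. The difference of 0.51 in log2 terms (standard error 0.19) did not pass the threshold, with an adjusted p of 0.0952 from edgeR. Without Ahrr-deficient replicate 1 it was 0.68, with an adjusted p of 0.00465, and with the replicate number as a block 0.44, with an adjusted p of 0.0484. Few 75-base stretches were shared between the neighbours: 1.62% of those of Scd1 occur in Scd2 and 1.45% of those of Scd2 in Scd1, and 2.27% of those of Scd1 occur in Scd3, which matched no row.

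Acly (ENSMUSG00000020917.17, chromosome 11, 100476353 to 100528000, minus strand), which provides the acetyl-CoA, was by far the most abundant of the 9 transcripts. It had 1461, 1167 and 1344 CPM in WT against 1666, 1482 and 2039 CPM in Ahrr-deficient cells. In CPM the groups did not overlap. The highest WT library, at 1461 CPM, lay close to the lowest Ahrr-deficient one, at 1482 CPM. In the deposited signal WT replicate 1 lay above Ahrr-deficient replicate 2, so there the groups overlapped. The difference was 0.31 in log2 terms (standard error 0.14), with an adjusted p of 0.145 from edgeR. In CPM, Acly was 1 of 4 listed genes, with Acaca, Fasn and Scd1, in which all Ahrr-deficient libraries lay above all WT libraries. The same was seen in 23.9% of the tested genes. The reverse order in CPM was seen in 0 of the 9 genes and in 12.8% of the tested genes. In the deposited signal Acaca and Scd1 kept the first order, while Acly and Fasn did not.

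Srebf1 (ENSMUSG00000020538.15, chromosome 11, 60199089 to 60222581, minus strand), the transcription factor of the pathway, was not past the threshold. It had 71.0, 65.1 and 61.9 CPM in WT against 56.2, 73.3 and 69.7 CPM in Ahrr-deficient cells. All WT libraries lay inside the range of the Ahrr-deficient libraries, and the means were 66.0 ± 4.6 and 66.4 ± 9.0 CPM (SD, n = 3). The difference was -0.05 in log2 terms (standard error 0.11), with an adjusted p of 0.763 from edgeR, and it was 0.11 with offsets for GC content, which for Srebf1 is 58.4%. The fit scales libraries by TMM factors and CPM by the library total, so for Srebf1, as for Elovl5, the fitted difference is below 0 although the mean CPM is slightly higher in Ahrr-deficient cells. Counts per gene do not separate the SREBP-1a and SREBP-1c transcripts, and processing of the protein is not seen in RNA. An exon of Rai1 overlaps 109 bases of Srebf1 on the opposite strand.

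The polyunsaturated branch was represented by Elovl5 and Fads1. Elovl5 (ENSMUSG00000032349.13, chromosome 9, 77917364 to 77984519, plus strand), an elongase of polyunsaturated fatty acids, had 111, 107 and 116 CPM in WT against 118, 110.4 and 119.9 CPM in Ahrr-deficient cells. It was the steadiest of the 9 genes, with a CV of 4.08% in WT and 4.29% in Ahrr-deficient libraries, and the ranges overlapped. The difference was -0.02 in log2 terms (standard error 0.08), with an adjusted p of 0.897 from edgeR. Fads1 (ENSMUSG00000010663.4, chromosome 19, 10182888 to 10196877, plus strand), the delta-5 desaturase on the path to arachidonate, had 11.9, 9.52 and 12.0 CPM in WT against 10.1, 17.1 and 13.0 CPM in Ahrr-deficient cells. In CPM, Ahrr-deficient replicate 1 again lay in the WT range. The difference for Fads1 was 0.27 in log2 terms (standard error 0.17), with an adjusted p of 0.287 from edgeR. Whether the fold changes of Elovl6 and Elovl5, or of Scd1 and Scd2, differ from each other was not tested.

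**Figure D2:**
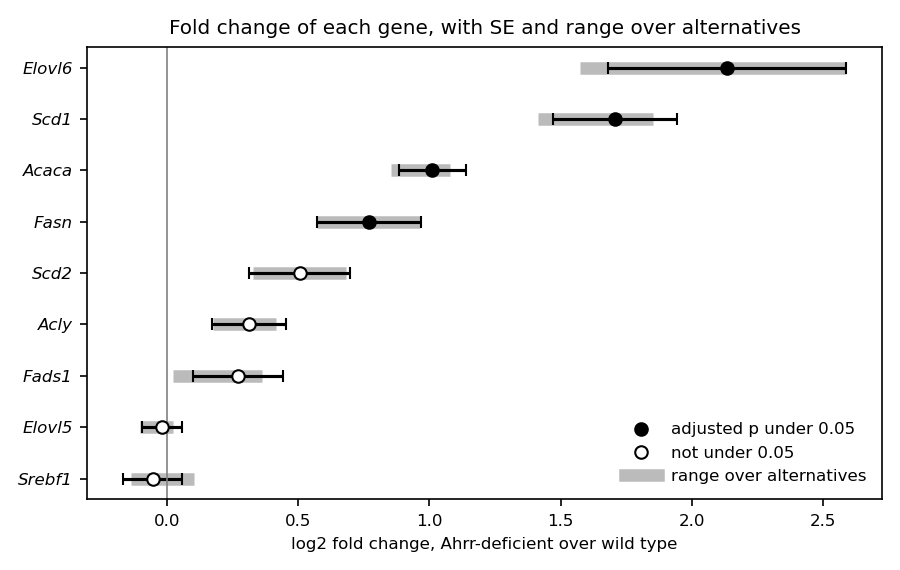
Log2 fold change of each gene (horizontal axis, Ahrr-deficient over wild type) with its SE, filled where the edgeR adjusted p was under 0.05, over a grey bar for the range across 16 alternative fits. Elovl6, Scd1, Acaca and Fasn are the filled points, from 2.13 down to 0.77, and the bars of Srebf1 and Elovl5 cross 0.

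Variation among the Ahrr-deficient libraries had a common pattern. In CPM, Ahrr-deficient replicate 1 was the lowest of its group for 7 of the 9 genes (all except Acly and Elovl5), as for 45.5% of all tested genes. It lay within the WT range in CPM for 3 of the 9 genes (Elovl6, Scd2 and Fads1), as for 29% of all tested genes. The median deviation of the 9 genes from their group mean was -0.36 on the log2 scale in Ahrr-deficient replicate 1, 0.35 in replicate 2 and 0.16 in replicate 3, against -0.02, 0.02 and 0.00 over all tested genes. In WT it was 0.09, -0.08 and 0.03, against 0.04, -0.10 and 0.07 over all tested genes. The same 7 genes were ordered like the depth of the Ahrr-deficient libraries, lowest in the shallowest and highest in the deepest. This order held for 26.9% of all tested genes. In WT, 3 of the 9 genes followed the depth of their libraries, against 24.5% of all tested genes. After all libraries were thinned to the smallest total, Acaca (log2 fold change 0.90), Scd1 (1.41) and Fasn (0.78) remained past the threshold. Without Ahrr-deficient replicate 1, 5 of the 9 genes were called, Scd2 being the fifth, where 32.6% of all tested genes were called. Without WT replicate 2, WT replicate 3 or Ahrr-deficient replicate 2, in turn, 2 were called. The number called over all tested genes also changed with the library left out, from 694 to 3857, so nothing particular to the 9 genes is read from these counts.

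Per kilobase of annotated exon, the order of the levels in WT was Acly, Elovl5, Srebf1, Scd2, Fasn, Fads1, Acaca, Scd1 and Elovl6. Acly stood at 251 ± 28 CPM per kb and Elovl5 at 31.6 ± 1.3 (SD, n = 3), then Srebf1 at 11.7 ± 0.8, Scd2 at 10.9 ± 1.2 and Fasn at 5.34 ± 0.71. The lowest were Fads1 at 2.32 ± 0.29, Acaca at 0.955 ± 0.051, Scd1 at 0.799 ± 0.183 and Elovl6 at 0.343 ± 0.137 CPM per kb. The libraries of Srebf1 and Scd2 overlapped, as did those of Acaca and Scd1, so the order within these pairs was not resolved, while the other neighbours did not overlap. In Ahrr-deficient cells Acly (328 ± 54) and Elovl5 (32.9 ± 1.4) again led. Behind them Scd2 and Srebf1 overlapped, as did Srebf1 and Fasn, and Fads1, Scd1, Acaca and Elovl6 formed a run in which each neighbour overlapped the next, between 2.79 and 1.52 CPM per kb. Acaca has 17074 bases of annotated exon over all its transcripts, and a single transcript uses only some of them, so its level per length is a low estimate.

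**Figure D3:**
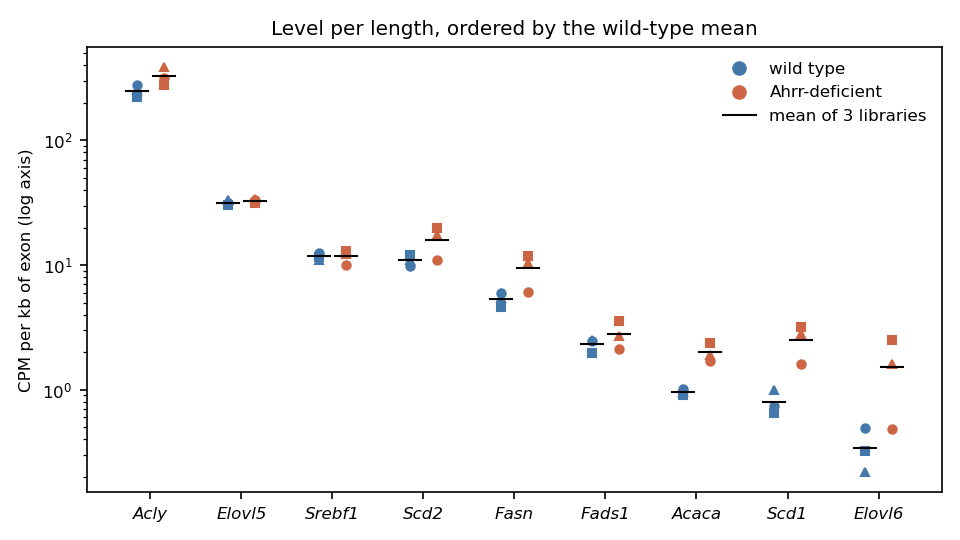
CPM per kilobase of annotated exon (log axis) of the 9 genes, ordered by the wild-type mean, for wild-type (blue) and Ahrr-deficient (orange) libraries, with circles, squares and triangles for replicates 1, 2 and 3 and lines for the means. Acly lies above 200 in every library, and the means of the 4 genes lowest in the wild type lie closer together in Ahrr-deficient cells.

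Within a library, the balance between these transcripts differed as well. The level per kb of Scd1 was 0.0764, 0.0536 and 0.0913 times that of Scd2 in WT and 0.148, 0.160 and 0.161 times in Ahrr-deficient libraries, without overlap. Scd2 thus remained the more abundant desaturase transcript in every library. The ratio of Elovl6 to Elovl5 was 0.0156, 0.0105 and 0.00661 in WT and 0.0144, 0.0794 and 0.0471 in Ahrr-deficient libraries, where replicate 1 fell inside the WT range. The ratio of Acaca to Acly was 0.00363, 0.00408 and 0.00377 in WT and 0.00537, 0.00841 and 0.00494 in Ahrr-deficient libraries, again without overlap. Summed over the 9 genes, the level was 1486 to 1798 CPM in WT and 1994 to 2506 CPM in Ahrr-deficient libraries, of which Acly made up 74.4% to 82.7%. These ratios and sums come from the same libraries as the fold changes and carry no test of their own.

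**Figure D4:**
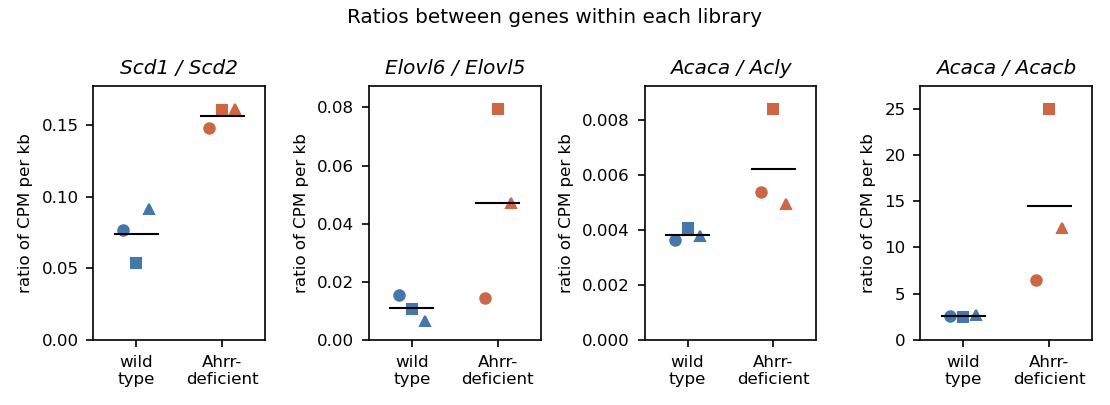
Ratio of the level per kb of one gene to that of another (vertical axes, from 0) in each wild-type (blue) and Ahrr-deficient (orange) library, with circles, squares and triangles for replicates 1, 2 and 3 and lines for group means. The ratios of Scd1 to Scd2, Acaca to Acly and Acaca to Acacb do not overlap between the genotypes. Ahrr-deficient replicate 1 is nearest the wild type for Scd1 to Scd2 and Acaca to Acacb, and replicate 3 for Acaca to Acly.

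Genes around this pathway were counted in 6 further lists. Over all tested genes 9.62% were called higher and 9.95% lower (19.6% in all). In the fits without 1 library, the number called over all tested genes ran from 694 to 3857. The lists were chosen with earlier results known, so nothing is read from the counts. Of 14 tested genes (19 listed) of other elongases, desaturases and their partners, 4 were called (28.6%), all higher in Ahrr-deficient cells. Their list had a median log2 fold change of 0.31. Elovl7, another elongase of long-chain saturated fatty acids, rose from 10.7 ± 1.8 to 21.5 ± 5.4 CPM (SD, n = 3), or by 0.97 in log2 terms (standard error 0.17), at an adjusted p of 0.00758 from edgeR. Hsd17b12, the ketoacyl-CoA reductase of the elongation cycle, rose by 0.73 on the log2 scale (adjusted p 0.0193), Cyb5b, a cytochrome b5, by 0.41 (0.0156) and Degs1, a dihydroceramide desaturase, by 0.28 (0.0488). Elovl7 kept its call without each library in turn. Cyb5b and Hsd17b12 each lost theirs in 4 of 6 such fits (without WT replicates 1 or 2 or Ahrr-deficient replicates 2 or 3), and Degs1 in all except that without Ahrr-deficient replicate 1. The count was 3 without WT replicate 3, 7 without Ahrr-deficient replicate 1 and 1 without each other library.

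The supply list holds genes that make or break down acetyl-CoA, malonyl-CoA and NADPH. Of its 17 tested genes (18 listed), 4 were called (23.5%, against 19.6% of all tested genes). All 4 were lower in Ahrr-deficient cells, where 9.95% of all tested genes were called lower. The median log2 fold change of the list was -0.14. Slc25a10, a mitochondrial dicarboxylate carrier, fell by 0.43 on the log2 scale (adjusted p 0.0453), and Pgls, of the pentose phosphate pathway, fell by 0.34 (0.0448). Mlycd, malonyl-CoA decarboxylase, which breaks malonyl-CoA down, fell by 0.31 (0.0399). The fourth, Acacb, was singled out after its values were seen: it encodes the acetyl-CoA carboxylase at mitochondria, whose malonyl-CoA restrains fatty acid oxidation. Its values were 3.78, 3.49 and 3.36 CPM in WT against 2.53, 0.912 and 1.52 CPM in Ahrr-deficient cells, without overlap. Acacb fell by 1.59 in log2 terms (standard error 0.33), at an adjusted p of 0.0130 from edgeR. Acaca was 2.56, 2.49 and 2.75 times as abundant as Acacb per kb in WT and 6.46, 24.9 and 12.1 times in Ahrr-deficient libraries. The call of Acacb was lost without WT replicate 1 (adjusted p 0.0802) or Ahrr-deficient replicate 2 (0.0870). Mlycd and Pgls kept their calls only without Ahrr-deficient replicate 1, and Slc25a10 only without Ahrr-deficient replicate 1 or 3. The count was 6 without Ahrr-deficient replicate 1, 2 without Ahrr-deficient replicate 3, 1 without WT replicate 2 or 3 and 0 without WT replicate 1 or Ahrr-deficient replicate 2. With offsets for GC content it was 1 and with DESeq2 1, and Slc25a10, Pgls and Mlycd lost their calls in both.

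Of 29 tested regulators (31 listed) of SREBP-1 and of lipogenesis, 7 were called (24.1%, against 19.6% of all tested genes). All 7 were lower in Ahrr-deficient cells, where 9.95% of all tested genes were called lower. The median log2 fold change of the regulators was -0.10. Nr1h3, the gene of LXR alpha, had 22.2, 18.6 and 20.04 CPM in WT against 13.2, 12.2 and 12.3 CPM in Ahrr-deficient cells, without overlap. Nr1h3 fell by 0.80 in log2 terms (standard error 0.11), at an adjusted p of 0.00310 from edgeR, and was called without each library in turn. Nr1h2, the gene of LXR beta, fell by 0.38 (adjusted p 0.0197), Stk11, the kinase upstream of AMPK, by 0.41 (0.0134), Usf1, an E-box factor, by 0.39 (0.0432) and Rxrb, a partner of LXR, by 0.38 (0.0253). Srebf2, the gene of SREBP-2, was not past the threshold, with a difference of 0.33 (adjusted p 0.101). Neither were Insig1 (-0.14, 0.402) and Scap (-0.15, 0.423), which control SREBP processing. Srebf2 was called without Ahrr-deficient replicate 1 (0.0145) and with offsets for GC content (0.48, adjusted p 0.0151). Stk11 lost its call without WT replicate 1, Nr1h2 and Rxrb lost theirs without each WT library or Ahrr-deficient replicate 2, and Usf1 kept its call only without Ahrr-deficient replicate 1. The count was 10 without Ahrr-deficient replicate 1, 4 without Ahrr-deficient replicate 3, 1 without WT replicate 1 and 2 without each other library. With offsets for GC content it was 3, and Nr1h2, Stk11, Usf1 and Rxrb lost their calls. Over the tested genes, GC content and log2 fold change had a Spearman correlation of -0.28.

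Of 20 tested genes (27 listed) of acyl-CoA activation and use in glycerolipids, 2 were called higher and 5 lower (median log2 fold change -0.06). The share called was 35%, against 19.6% of all tested genes. Acsl4, an acyl-CoA synthetase for arachidonate, rose from 114 ± 14 to 211 ± 37 CPM (SD, n = 3), or by 0.81 on the log2 scale (adjusted p 0.00917). Dgat1, which makes triglyceride, fell from 360.1 ± 33.6 to 197 ± 44 CPM, that is by 0.95 on the log2 scale (adjusted p 0.00626). Agpat3, an acyltransferase of phospholipid synthesis, fell by 0.44 (0.0137) and Acot2, a mitochondrial acyl-CoA thioesterase, by 0.55 (0.0188). Acot1, a cytosolic acyl-CoA thioesterase singled out after its values were seen, had a mean of 41.7 counts and fell from 5.87 ± 2.57 to 1.04 ± 0.22 CPM (SD, n = 3), or by 2.71 on the log2 scale (adjusted p 0.00241). Acot1 and Acot2 are close paralogs whose reads the counting could split, so both values are uncertain. Acsl4, Dgat1 and Acot1 were called without each library in turn, Agpat3 in all such fits except those without WT replicate 1 or Ahrr-deficient replicate 2, and Acot2 only without Ahrr-deficient replicate 1 or 3. The count was 3 without WT replicate 1 or Ahrr-deficient replicate 2, 4 without WT replicate 2 or 3, 5 without Ahrr-deficient replicate 3 and 9 without Ahrr-deficient replicate 1.

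Sterol synthesis and LXR targets belong to the neighbouring branch of lipid metabolism. Of 23 tested genes (24 listed) of sterol synthesis and uptake, 3 were called higher and 1 lower, with a median log2 fold change of 0.19. The share called was 17.4%, against 19.6% of all tested genes. Stard4, a sterol carrier, rose by 0.59 on the log2 scale (adjusted p 0.00813) and Sc5d, a late sterol enzyme, by 0.33 (0.0450), while Pmvk, a kinase of the mevalonate pathway, fell by 0.48 (0.0261). Stard4 was called without each library in turn. Pmvk kept its call only without WT replicate 3 or Ahrr-deficient replicate 1, and Sc5d only without the latter. The count was 7 without Ahrr-deficient replicate 1, 1 without WT replicate 1 and 2 without each other library. With DESeq2 it was 2.

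Of 9 tested LXR targets (12 listed) of cholesterol efflux and lipoprotein handling, 6 were called lower and 2 higher, with a median log2 fold change of -0.65. Apoc1, an apolipoprotein gene, fell by 4.62 on the log2 scale (adjusted p 1.44e-04). It had 310, 102 and 92 counts in WT against 3, 23 and 7 in Ahrr-deficient libraries. Ahrr-deficient replicate 1 was thus at the floor of 3 counts used below for Apoc4. Pltp, of phospholipid transfer, fell from 256 ± 10 to 45.7 ± 32.9 CPM (SD, n = 3), at an adjusted p of 0.00519 from edgeR. Abca1, the cholesterol exporter, fell by 1.38 on the log2 scale (0.0281) and Mylip, which degrades the LDL receptor, by 0.65 (0.00637). The 2 that rose, named after their values were seen, were far more abundant. Lpl, lipoprotein lipase, rose from 5565 ± 346 to 8404 ± 710 CPM (SD, n = 3), or by 0.52 on the log2 scale (adjusted p 0.0173). Abcg1, another cholesterol exporter, rose from 760.02 ± 103.75 to 1027 ± 82 CPM (SD, n = 3), or by 0.37 on the log2 scale (adjusted p 0.0497). Abcg1 was past the threshold narrowly, and its call was lost with RLE factors (adjusted p 0.0514) and in all fits without 1 library except that without Ahrr-deficient replicate 1. Lpl kept its call only without Ahrr-deficient replicate 1 or 2 among those fits. Apoc4 had 0 counts in all Ahrr-deficient libraries and was at least 5.28-fold lower against a floor of 3 counts per library. With Apoc4 at that bound the list's median stayed at -0.65. Among fits without 1 library, Abca1 was called only without WT replicate 2 or Ahrr-deficient replicate 1, while Apoc1, Pltp and Mylip were called without each library in turn. The log2 fold change of Pltp was -3.39 without Ahrr-deficient replicate 1. The count was 8 without Ahrr-deficient replicate 1, 5 without WT replicate 2 or Ahrr-deficient replicate 2 and 4 without each other library. Beside these, 19.6% of all tested genes were called and their median log2 fold change was 0.01. Whether the lists differ from one another was not tested.

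**Figure D5:**
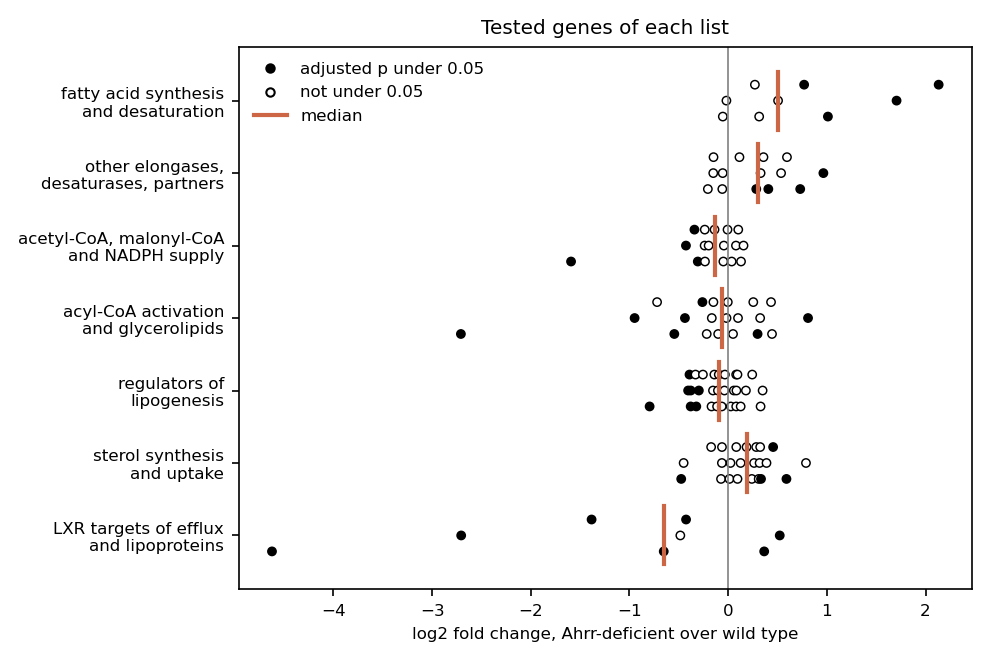
Log2 fold change of the tested genes of each list (horizontal axis, Ahrr-deficient over wild type), 1 point per gene, filled where the edgeR adjusted p was under 0.05, with an orange line at the median (the point of Apoc4, with 0 counts in all Ahrr-deficient libraries, is not drawn, but it counts in the median). The medians run from 0.51 for fatty acid synthesis and desaturation to -0.65 for LXR targets.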

How the data were processed

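Libraries of polyA RNA (100 ng, single 75 bp reads) were made from 6 cultures. The submitters' processing notes name CASAVA 1.8.2, fastp 0.20.0, STAR 2.7.10b, SAMtools 1.16.1, R 4.3.1, DESeq2 1.40.2 and the build mm10; the counting program, the annotation and the strand setting are not given in the sources used here. The authors deposited raw counts for 53465 features without identifiers, and a normalized signal for 16111 named genes, which is the count divided by a size factor per library. Every signal value was a whole number of reads (tolerance 0.01, 100% of values), and the recovered reads equalled raw counts for 16111 genes, so the count test on the recovered reads calls the same 2232 genes. Features without an identifier held 0.0232% to 0.0511% of the counts. They were left out of the tests, except in the alternatives with DESeq2 and without a filter.

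Counts were tested with edgeR 4.0.16 (quasi-likelihood, TMM, filterByExpr, genotype only, two-sided, Benjamini-Hochberg over 11408 genes, threshold 0.05) in R 4.3.3, and the script was tested on simulated data. SEs come from the fold change and the F statistic. The biological coefficient of variation was 13.0%. CPM is the count per 1000000 of the library total. The floor for a count of 0 was 3 counts per library (0.0720 to 0.844 CPM) and covers counting error only. Exon lengths, GC content and coordinates are from GENCODE M21 (GRCm38; 16088 of 16111 identifiers matched). Promoter windows are those of RefSeq (GRCm38.p6). Plots used Python 3.11.15 and matplotlib 3.10.9.

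The genes and lists were chosen with earlier results of these data known. Named genes are the listed genes, the up to 4 of each other list with the largest change among called genes with a mean of at least 50 counts, 5 controllers of Srebf1, and Ahrr; Acacb, Acot1, Lpl, Abcg1 and Apoc4 were added after their values were seen. One gene that this rule names is not reported here. Alternatives were RLE and upper-quartile factors, DESeq2 1.42.0, no filter, a stricter filter (mean counts of 50 or more), limma-voom (limma 3.58.1), a replicate block, GC offsets (lowess, span 0.3), both together, thinning to the smallest total, and each library left out.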

Additional observations from a re-analysis of the deposited data

How the results depend on the processing

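The 16 alternatives gave 780 values, of which 552 had the same direction and call (for counts, a value within 1.5 times), 152 lost the call, 8 gained it, 60 were counts that moved further and 8 changed sign. Alternatives for named genes outside the pathway were added after the data were seen. Acaca and Scd1 were called in all 16 alternatives, Elovl6 in 11, Fasn in 10 and Scd2 in 4. Unless named, the cause of a change was not tested.

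Replicate numbers 1 to 3 occur in both groups, and same-numbered libraries had correlations of -0.17 to 0.13 in their deviations. With 3 such pairs, these values cannot tell whether same-numbered libraries shared a litter or a day. The sources used here do not say that the numbers mark a pairing, so the main fit left them out. With the replicate block, 1390 genes were called against 2232, and 4 of the 9 genes of the pathway, with Scd2 (adjusted p 0.0484) in and Fasn (0.0589) out; the block gave 1 gene of acetyl-CoA, malonyl-CoA and NADPH supply, 3 regulators, 2 sterol genes and 5 LXR targets. Block and GC offsets together gave 1276 genes, 0 of the supply list, 0 elongation partners and 2 regulators, and Elovl6 had an adjusted p of 0.0610. GC offsets alone gave 1 supply gene and 3 regulators. Thinning gave 1251 genes, 1 supply gene, 2 elongation partners, 3 regulators, 4 acyl-CoA genes, 2 sterol genes and 5 LXR targets, from fewer reads. DESeq2 gave 1 supply gene and 2 sterol genes, and the fit without a filter gave 7 sterol genes.

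Leaving out 1 library gave 694 (without WT replicate 1) to 3857 genes (without Ahrr-deficient replicate 1), 2 to 5 genes of the pathway, 0 to 6 of supply, 1 to 7 elongation partners, 1 to 10 regulators, 3 to 9 acyl-CoA genes, 1 to 7 sterol genes and 4 to 8 LXR targets.

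The sign changes were in Srebf1, Elovl5 and Scap. Srebf1 was 0.105 with GC offsets, 0.101 with block and GC offsets and 0.0238 after thinning, and ran from -0.138 to 0.0187 (without Ahrr-deficient replicate 1) over the fits without 1 library. Elovl5 ran from -0.0492 to 0.0234 over those fits (above 0 without WT replicate 2, at 0.00799, or Ahrr-deficient replicate 2). Scap was 0.0131 with GC offsets and 0.0117 with block and GC offsets. Among the 9 genes of the pathway, Elovl6 and Scd1 had the fewest counts in the shallowest library, 11 and 28.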
